A study of Mus musculus with 2 samples.

Results

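The 40 genes described here serve the breakdown of fatty acids in liver: the carnitine shuttle and beta-oxidation of mitochondria, ketone body metabolism, the parallel oxidation system of peroxisomes, and genes switched on by the nuclear receptor PPAR-alpha. They were listed by name, and each was read by its brightest probe set, that is, the one with the highest mean over both arrays among probe sets annotated to that gene alone. This gave values for 38 of the 40, out of 11693 genes that passed a filter on low signal. Acsl1 and Ucp2 were not analysed here, because no probe set was annotated to them in the table used. All 38 lay above the signal floor on both arrays, and 34 of them belonged to the fifth of genes with the highest signal.

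RNA came from precancerous liver of mice kept on chow under a cycle of 12 h of light. Both groups carried the Pik3ca transgene, whose expression is restricted to hepatocytes and which encodes the catalytic subunit of phosphoinositide 3-kinase. One group was wild type for Kdm3a and the other was a Kdm3a knockout; Kdm3a encodes a demethylase of lysine 9 on histone H3. Each genotype had 1 Affymetrix array, and mice without the transgene were not analysed here. The labels do not state the age, sex or strain of the mice, or how many animals stand behind an array. Differences between the arrays therefore have no replicate check and no test, and describe 2 arrays rather than 2 genotypes.

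In a fasted or fat-loaded liver, long-chain acyl-CoA enters mitochondria as carnitine esters and is shortened there by repeated rounds of dehydrogenation, hydration, dehydrogenation and thiolysis. The electrons pass through the electron transfer flavoprotein to the respiratory chain, and the acetyl-CoA formed feeds the citric acid cycle or ketone bodies. Peroxisomes shorten very-long-chain, branched and dicarboxylic acyl chains and hand the products on to mitochondria. PPAR-alpha, bound to DNA as a partner of the retinoid X receptor, is the main transcriptional activator of both systems in hepatocytes, and insulin signalling through phosphoinositide 3-kinase is known to restrain several of the same genes.

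Kdm3a, the deleted gene, had a signal of 719.9 on the wild-type and 61.6 on the knockout array, which goes with the labels, although it is not known here whether its probe set lies within the deleted part. The tissue label was borne out by hepatocyte markers: all 13 measured ones, among them Alb, Apoa1 and Ttr, gave strong signal on both arrays. They were also higher on the knockout array, with log2 ratios of knockout over wild type from 0.18 for Ahsg to 1.22 for Tat and a median of 0.41; their summed signal was 466838 on the wild-type and 641943 on the knockout array. Markers of other cells were lower: 11 of 14 measured stellate cell and fibroblast markers, 8 of 8 cholangiocyte markers and 10 of 19 macrophage markers were at least 2-fold lower. Their summed signals went from 42586 to 17527, from 7828 to 1475 and from 70849 to 44853. Resident macrophage receptors went the other way, with Cd163, Marco and Timd4 at least 2-fold higher; all 3 were below the floor in the wild type and were kept only for their knockout signal. Of 9 endothelial markers 1, Vwf, was at least 2-fold lower, and of 6 measured markers of T, NK and B cells 2 were lower and 1, Jchain, was higher. Among adipocyte genes, Fabp4 was 6.96-fold lower (signals of 15591 and 2240) and Pck1, which hepatocytes also make, had a log2 ratio of 0.78, while Adipoq and Lep, which define the cell, were below the floor on both arrays. In whole tissue, a lower share of a cell type and less of an RNA per cell cannot be told apart, and the part of this difference in cell markers in the values below was not tested.

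Of the 38 measured genes, 2 were at least 2-fold lower on the knockout array, Pdk4 and Acot2, and 0 were at least 2-fold higher. With quantile normalization or loess Ehhadh joined them, at -1.02 under each, which made 3. Over all genes, 8.96% were at least 2-fold lower and 3.83% at least 2-fold higher, and in the fifth of highest signal, to which most of the 38 belong, the shares were 4.4% and 4.49%. At 1.5-fold, 5 genes were lower (Pdk4, Acot2, Ehhadh, Vnn1 and Crat) and 1 was higher (Etfa), beside 17.4% lower and 11.1% higher over all genes and 8.94% and 13.8% in the fifth of highest signal. The median log2 ratio of the 38 was 0.09, beside -0.02 over all genes, 0.12 in the fifth of highest signal and 0.41 for hepatocyte markers. As a whole, the list was thus close to other genes of strong signal, and what follows concerns its single members.

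**Figure D1:**
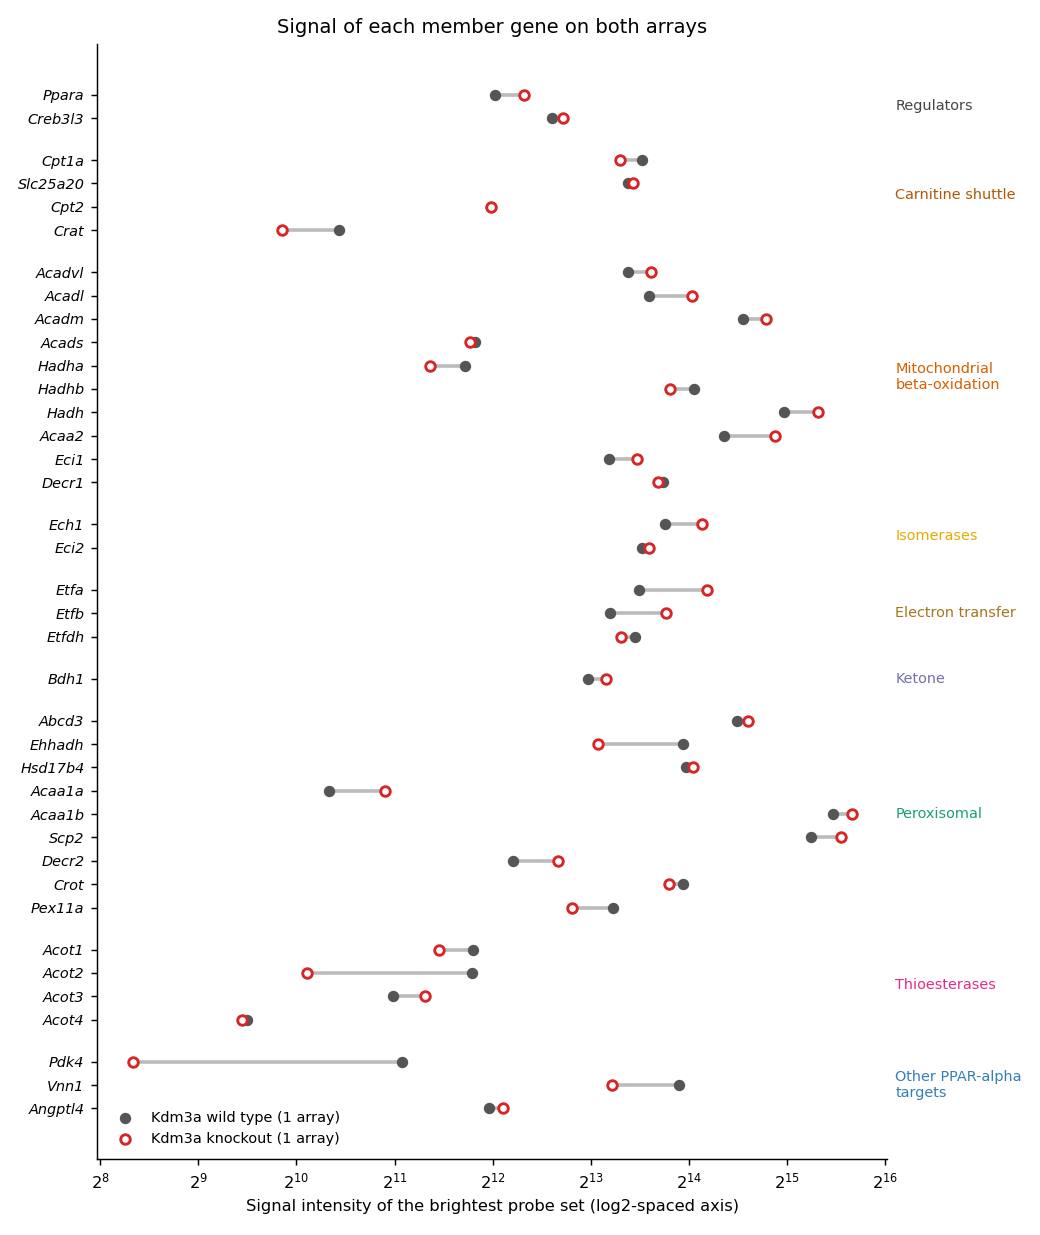
Signal intensity of the brightest probe set of each of the 38 measured genes (horizontal axis, spaced by log2) on the wild-type array (filled grey) and the knockout array (open red), 1 array each, grouped by role. The longest grey bars are those of Pdk4, Acot2 and Ehhadh, with the knockout point to the left, followed by Etfa, with it to the right, and Vnn1, with it to the left.

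How the arrays are scaled matters for differences this small. Spiked-in hybridisation controls stood 0.13 higher (log2) on the knockout array and poly-A controls lower (-0.18), so that the median of all genes would be -0.16 with scaling on the former and 0.16 on the latter; median centring would put it at -0.12. Under 13 other ways of scaling, filtering and summarising, including one centred on the hepatocyte markers that was added after the data had been seen, 10 genes stayed lower throughout: Pdk4, Acot2, Acot1, Ehhadh, Vnn1, Crat, Pex11a, Hadha, Hadhb and Cpt1a. Another 6 stayed higher: Etfa, Etfb, Acaa2, Decr2, Acadl and, under the 12 settings that gave it a value, Acaa1a. Both probe sets annotated to Acaa1a alone have names ending in _x_at and drop out when such probe sets are omitted. The genes that stayed lower and higher were 26.3% and 15.8% of the 38, beside 31.5% and 15% of all genes and 21.5% and 23.2% in the fifth of highest signal. A gene without a value under a setting was counted as keeping its sign there. The shares over all genes thus include genes not seen under every setting. Of the 11693, 8199 had a value with the filter at the 70th percentile. The sign of the remaining 22 changed under at least 1 of these settings, 8 of them under the hepatocyte-centred one alone, and they are given below as values. Settings that altered only the filter or the floor left all 38 at their main values, so these settings could not change a sign. The scalings were also not balanced in direction. Poly-A controls raised every member ratio by 0.18, whereas hepatocyte centring lowered every one by 0.41. A small negative ratio thus kept its sign more easily than a positive one of like size. Cpt1a, at -0.23, reached -0.04 at most, whereas Ech1, at 0.37, fell to -0.04.

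The sequences before the start sites of the members that differ most, and of close neighbours that differ from each other, are shown first. PPAR-alpha binds a direct repeat of the half-site AGGTCA with 1 base between the copies, and forkhead factors of the FOXO class, which insulin signalling holds in check, bind GTAAACA. Both strands of the 250 bases before each start site were searched for the direct repeat with up to 2 mismatches in its 12 compared bases, for the exact half-site, which can overlap the repeat, and for the exact forkhead motif. Over all 32851 promoters of the RefSeq table (GRCm38.p6), 3.24% held the repeat, 14% the half-site and 3.17% the forkhead motif. Of the 40 genes, 34 had an entry, with 39 promoters. The repeat was found before Acot4, Creb3l3 and Etfa, the half-site before Acadm, Acadvl, Acot4, Cpt1a, Creb3l3 and Scp2, and the forkhead motif before 0 of them. These windows are short, and a sequence that is absent from them may lie elsewhere in a gene.

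The 5 promoters below are given because Pdk4 and Acot2 were the members past 2-fold and because Acot2, Acot1, Acot4 and Acot3 lie in this order along chromosome 12. Capitals mark the direct repeat, which contains the half-site; it occurs once, directly before the start site of Acot4 and on the opposite strand, from base -13 to base -1, with 2 mismatches. Positions are chr6:5496279-5496528 (minus strand) for Pdk4, and on the plus strand chr12:83987611-83987860 for Acot2, chr12:84009252-84009501 for Acot1, chr12:84038129-84038378 for Acot4 and chr12:84051894-84052143 for Acot3.
Pdk4: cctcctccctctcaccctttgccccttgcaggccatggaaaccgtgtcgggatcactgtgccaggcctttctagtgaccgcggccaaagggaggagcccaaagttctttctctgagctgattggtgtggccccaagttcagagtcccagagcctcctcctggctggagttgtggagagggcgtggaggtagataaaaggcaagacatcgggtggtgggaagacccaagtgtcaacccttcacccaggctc
Acot2: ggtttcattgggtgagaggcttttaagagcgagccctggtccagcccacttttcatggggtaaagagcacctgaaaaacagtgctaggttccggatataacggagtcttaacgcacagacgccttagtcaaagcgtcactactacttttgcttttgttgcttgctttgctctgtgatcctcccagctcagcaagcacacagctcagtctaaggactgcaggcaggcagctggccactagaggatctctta
Acot1: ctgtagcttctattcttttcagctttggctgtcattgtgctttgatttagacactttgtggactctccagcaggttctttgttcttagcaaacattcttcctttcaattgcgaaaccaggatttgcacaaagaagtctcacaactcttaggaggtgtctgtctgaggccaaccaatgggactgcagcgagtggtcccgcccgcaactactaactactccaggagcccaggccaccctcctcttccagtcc
Acot4: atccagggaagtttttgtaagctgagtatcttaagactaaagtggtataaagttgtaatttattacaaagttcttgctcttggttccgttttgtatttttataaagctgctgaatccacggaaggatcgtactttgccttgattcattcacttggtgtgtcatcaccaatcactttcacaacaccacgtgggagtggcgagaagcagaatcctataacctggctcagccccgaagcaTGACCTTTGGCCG
Acot3: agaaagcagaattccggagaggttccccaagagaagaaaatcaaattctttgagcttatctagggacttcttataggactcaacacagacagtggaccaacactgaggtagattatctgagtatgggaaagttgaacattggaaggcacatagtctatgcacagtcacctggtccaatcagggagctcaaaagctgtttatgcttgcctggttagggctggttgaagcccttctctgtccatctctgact

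Aligned end to end, the promoters of the 4 thioesterases were identical at 49.5% to 51.9% of aligned positions with each other and at 47.3% to 48.8% with that of Pdk4, an unrelated gene. The capitals in the Acot4 line are thus the one searched feature that tells the 4 windows apart.

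Pdk4 showed the widest difference of all members. It encodes the kinase that shuts pyruvate dehydrogenase and so spares glucose when fat is burned, and it is a classic gene of the fasted state. Its signal was 2155 on the wild-type and 323 on the knockout array, 15.0% of the wild-type value and a 6.67-fold difference (log2 ratio -2.74). Only 56 of the 11693 genes had a lower ratio. Pdk4 was read by a single probe set, and its log2 ratio lay between -3.15 and -2.55 under the other settings. The promoter printed above held neither the direct repeat nor the forkhead motif.

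Of the related kinases, Pdk1 had a log2 ratio of 0.53 (signals of 4932 and 7128) and Pdk2 one of 0.57 (250 and 370). Pdk3, with signals of 97.5 and 39.7, was lower too but under the filter on low signal, and its knockout value was below the floor.

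Acyl-CoA thioesterases release free fatty acid and CoA, and differ mainly in where they work: Acot1 in the cytosol, Acot2 in mitochondria, Acot3 and Acot4 in peroxisomes. Acot2 went from 3531 in the wild type to 1100 in the knockout by its brightest probe set, a 3.21-fold difference (log2 ratio -1.68). A second probe set went from 850.8 to 193.2 (-2.14), so both were past 2-fold in the same direction. Its neighbours were all within 2-fold. Acot1 had signals of 3571 and 2798 (-0.35), Acot4 of 721.5 and 697.4 (-0.05) and Acot3 of 2019 and 2546 (0.33). The start sites of Acot1, Acot4 and Acot3 lie 21.6, 50.5 and 64.3 kb from that of Acot2, and the log2 ratios in that order along the chromosome, beginning with Acot2, were -1.68, -0.35, -0.05 and 0.33. The 4 genes are close paralogs whose transcripts may share probes, and Acot3 was read by a probe set of the kind that can match several transcripts. The sign of Acot4 and Acot3 changed with the settings, whereas Acot2 and Acot1 were lower under all 13. Acot9, a mitochondrial thioesterase that is not a member, was also lower, with signals of 1651 and 392.3 (-2.07).

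**Figure D2:**
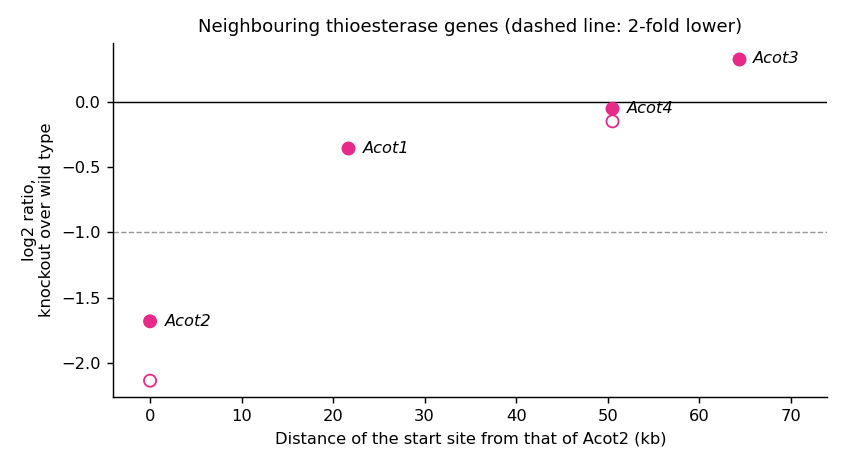
Log2 ratio of knockout over wild type for the 4 neighbouring thioesterase genes against the distance of their start sites from that of Acot2, in kb. Filled points are the brightest probe set of a gene and open points its other probe sets; both probe sets of Acot2 lie below the dashed 2-fold line, at -1.68 and -2.14, and the other genes lie between -0.35 and 0.33.

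The receptor and its partner factor were similar on both arrays. Ppara had signals of 4175 and 5099 by its brightest probe set (0.29), and its other probe sets gave 0.27 and 0.39. Creb3l3, a liver transcription factor of fasting that works together with PPAR-alpha, had signals of 6231 and 6733 (0.11). Both ratios lay below the hepatocyte marker median and turned negative when centred on it, at -0.12 and -0.30.

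A pair of widely used readouts of PPAR-alpha behaved differently from each other. Vnn1, a pantetheinase anchored to the cell surface, went from 15316 to 9511 (-0.69) by one probe set and from 7356 to 4014 (-0.87) by the other, and was lower under all settings. Angptl4, a secreted inhibitor of lipoprotein lipase, had signals of 3976 and 4406 (0.15), and its sign changed with hepatocyte centring.

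In mitochondria, the 19 measured members had a median log2 ratio of 0.07, with 11 positive and 8 negative and 0 past 2-fold. That median changed sign with the scaling, to -0.06 with loess or hybridisation controls and to 0.25 with poly-A controls. They are given below in the order of the pathway.

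At entry, the values were even or lower. Cpt1a, the outer-membrane carnitine palmitoyltransferase that sets the pace of the pathway, had signals of 11736 and 10035 (-0.23), and its other probe sets gave -0.42 and -0.09. Slc25a20, the carnitine-acylcarnitine carrier, had signals of 10672 and 11056 (0.05), with -0.16 from a second probe set. Cpt2, which rebuilds acyl-CoA on the inner side, stood at 4051 and 4045 (log2 ratio -0.0021), while a dim second probe set went from 105.4 to 216.5 (1.04), so its probe sets do not give 1 answer. Crat, the acetyltransferase that exports short acyl groups from mitochondria and peroxisomes, was lower by each of 3 probe sets: 1388 to 921.7 (-0.59), 931.2 to 519.5 (-0.84) and 116.2 to 84.4 (-0.46). Cpt1a and Crat were the members of this step that were lower under all 13 settings, by the probe set or mean that each setting used.

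The acyl-CoA dehydrogenases, which open each round of oxidation and are named for the chain length they accept, were even or slightly higher. Acadl, for long chains, had signals of 12364 and 16730 (0.44), a difference that kept its sign under all settings. Acadvl, for very long chains, had 10685 and 12555 (0.23), Acadm, for medium chains, 24001 and 28283 (0.24), and Acads, for short chains, 3611 and 3493 (-0.05). The last 3 changed sign with at least 1 setting.

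Hadha and Hadhb encode the alpha and beta subunits of the trifunctional protein, which carries out the later steps on long chains. They were the lower members of the spiral. Hadha had signals of 3362 and 2625 (-0.36). Hadhb had 16982 and 14347 (-0.24), with -0.21 and -0.17 from its other probe sets, and both genes stayed lower under all settings. The 2 genes are divergent neighbours, and the 272 bases between their start sites, chr5:30154981-30155252 (GRCm38.p6), printed on the strand of Hadhb because they serve as the upstream sequence of both, held none of the 3 motifs.
Hadha and Hadhb: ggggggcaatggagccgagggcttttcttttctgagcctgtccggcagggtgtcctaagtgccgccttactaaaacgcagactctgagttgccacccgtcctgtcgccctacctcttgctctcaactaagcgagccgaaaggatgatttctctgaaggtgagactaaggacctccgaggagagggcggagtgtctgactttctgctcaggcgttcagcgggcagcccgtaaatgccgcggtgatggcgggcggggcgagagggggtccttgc

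For the later steps on shorter chains, Hadh and Acaa2 had positive ratios. The dehydrogenases did not follow chain length in this way, with Acadl for long chains at 0.44 and Acads for short chains at -0.05. Hadh, the dehydrogenase of medium and short chains, had signals of 31992 and 40621 (0.34), and 0.26 and 0.08 by its other probe sets. Acaa2, the thiolase that splits off acetyl-CoA, had 20930 and 30061 (0.52), with 0.52 and 0.65 by the others, and stayed higher under all settings. Hadh turned to -0.07 when centred on hepatocyte markers.

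Auxiliary enzymes handle unsaturated chains. The isomerase Eci1 had signals of 9295 and 11308 (0.28), Ech1 had 13840 and 17927 (0.37), and Eci2, found in mitochondria and peroxisomes like Ech1, had 11749 and 12327 (0.07). The 2,4-dienoyl-CoA reductase Decr1 stood at 13639 and 13170 (-0.05), but its second probe set went from 2570 to 1405 (-0.87). None of these 4 kept its sign under every setting.

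By the main values, the electron transfer flavoprotein had the highest ratios in the list. Etfa, its alpha subunit, went from 11545 to 18646 (0.69, a 1.61-fold difference), and Etfb, the beta subunit, from 9383 to 13931 (0.57). Both stayed above the hepatocyte marker median, by 0.28 and 0.16. Etfdh, the membrane dehydrogenase that takes electrons from the flavoprotein to ubiquinone, did not go with them, at 11168 and 10134 (-0.14). Each of the 3 was read by 1 probe set of sufficient signal. The ranking depended on the scaling. The peroxisomal member Acaa1a was level with Etfb at 0.57. Acaa1a was above Etfa with quantile normalization (0.62 and 0.49) and with loess (0.58 and 0.51).

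**Figure D3:**
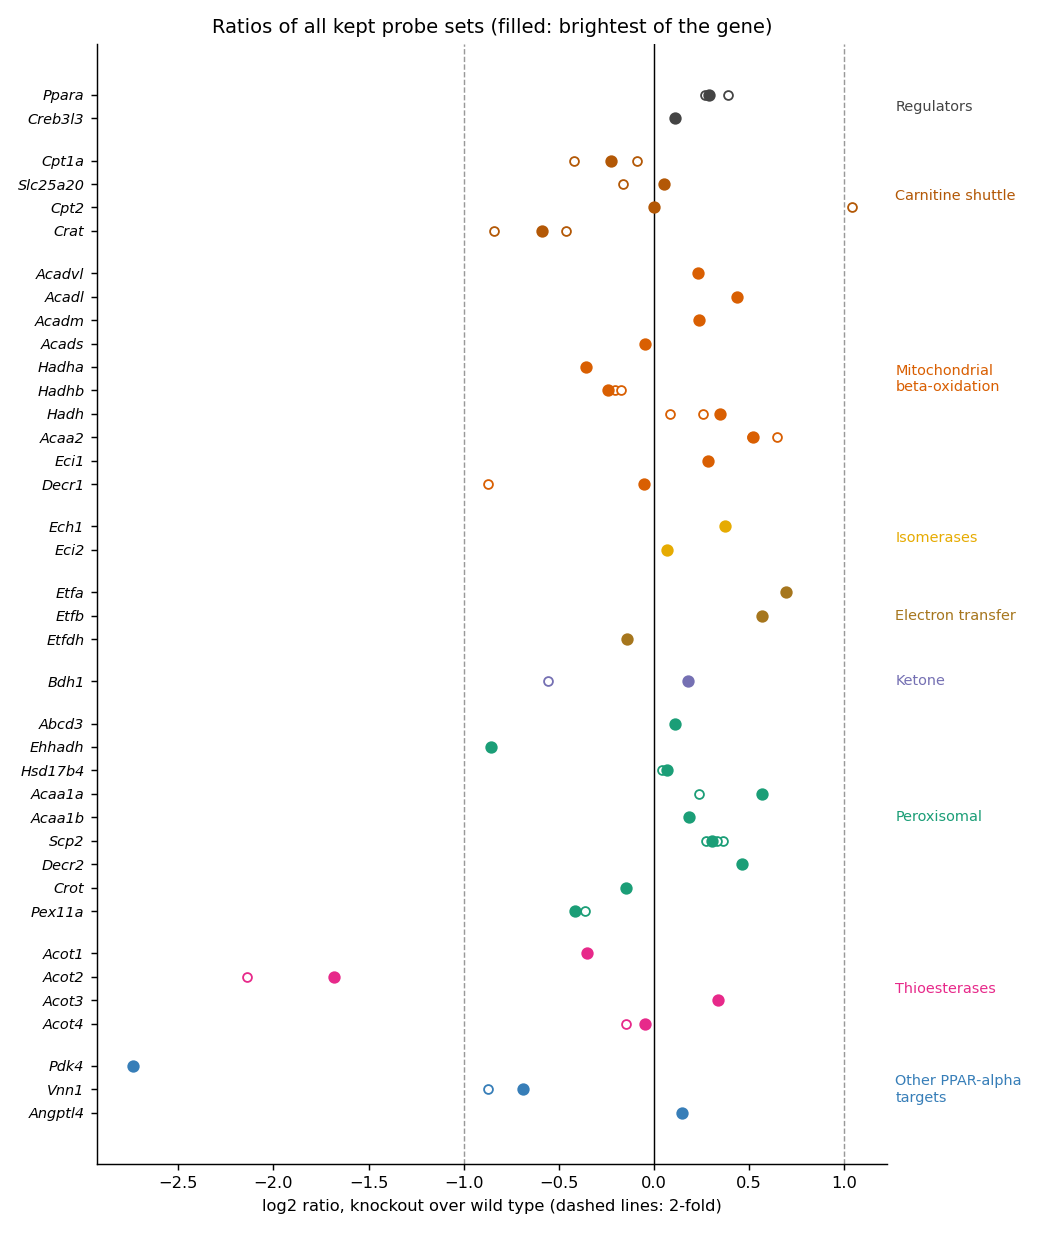
Log2 ratio of knockout over wild type for every probe set of the 38 genes that passed the filter on low signal, grouped by role; filled points are the brightest probe set of a gene and dashed lines mark 2-fold. Pdk4 and both probe sets of Acot2 lie to the left of the lower line, and the second probe set of Cpt2 lies just beyond the upper one.

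Ketone metabolism was represented among the members by 1 measured gene. Bdh1, the mitochondrial dehydrogenase that turns acetoacetate into beta-hydroxybutyrate, had signals of 8055 and 9102 (0.18), whereas its second probe set went from 1107 to 751.9 (-0.56), and the mean of both was -0.19. The direction of Bdh1 is therefore unsettled. Of 7 other ketone genes measured, 2 were at least 2-fold lower and 1 was at least 2-fold higher, beside 8.96% and 3.83% of all genes. Slc16a1, a monocarboxylate carrier that moves ketone bodies and lactate across the cell membrane, went from 4719 to 1979 (-1.25). Oxct1, the ketone-using transferase that adult hepatocytes largely lack, went from 832.9 to 331.7 (-1.33), and its 4 probe sets ranged from -1.33 to -0.63. Bdh2, a cytosolic dehydrogenase, went from 286.7 to 673.7 (1.23). Acat1, the mitochondrial acetoacetyl-CoA thiolase, had signals of 23585 and 29460 (0.32).

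In peroxisomes, the 9 members had a median log2 ratio of 0.11, with 6 positive and 3 negative and 0 past 2-fold. With quantile normalization or loess this median was -0.12. Ehhadh, the bifunctional enzyme that acts on dicarboxylic acids and is among the most inducible PPAR-alpha targets, stood apart: its signal was 15652 on the wild-type and 8627 on the knockout array, a 1.81-fold difference (-0.86). Under the other settings its ratio lay between -1.27 and -0.68. Hsd17b4, the second bifunctional enzyme, which serves branched chains and bile acid precursors, was even at 16062 and 16831 (0.07) and at 0.04 by its other probe set.

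Pex11a, which divides peroxisomes when they proliferate, was lower by both probe sets, from 9587 to 7182 (-0.42) and from 8327 to 6465 (-0.37). By the main values, the thiolases were not lower. Acaa1a went from 1288 to 1909 (0.57), with 0.24 by a second probe set, and Acaa1b had signals of 45380 and 51631 (0.19). These 2 genes are near-identical copies, so their probe sets may read both. Scp2, which carries a thiolase and a sterol carrier domain, had 38730 and 47903 (0.31), and its 4 probe sets agreed closely, from 0.27 to 0.36. Acaa1b turned to -0.12 with quantile normalization and to -0.11 with loess. Centred on hepatocyte markers, Acaa1b was at -0.22 and Scp2 at -0.10. Decr2, the peroxisomal reductase of unsaturated chains, went from 4711 to 6495 (0.46).

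Transport out of and into the organelle was even. Abcd3, the membrane carrier of branched and dicarboxylic acyl-CoA, had signals of 22935 and 24786 (0.11), and Crot, which makes medium-chain carnitine esters for export to mitochondria, had 15721 and 14199 (-0.15). The sign of each changed with the scaling. Of the 9 peroxisomal members, Ehhadh and Pex11a were lower and Decr2 higher under all 13 settings, and Acaa1a was higher under the 12 that gave it a value.

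Other genes of the same pathways, listed by role, spread more widely. Their counts stand beside 8.96% of all genes at least 2-fold lower and 3.83% higher. In the fifth of highest signal these shares were 4.4% and 4.49%. Of 43 other peroxisomal genes measured, 6 were at least 2-fold higher and 1 was at least 2-fold lower, with a median of 0.36. The higher ones were Agxt, the glyoxylate aminotransferase (1481 to 7487, 2.34), Hacl1, the lyase of alpha-oxidation (4062 to 10125, 1.32), Pecr, a trans-enoyl-CoA reductase (5463 to 13497, 1.30), the membrane protein Pxmp2 (5367 to 11902, 1.15), Nudt7, a CoA diphosphatase (5809 to 12357, 1.09), and the glutathione transferase Gstk1 (6975 to 14572, 1.06). The probe sets of Nudt7 went both ways, from -0.75 to 1.09. Far1, an enzyme of ether lipid synthesis, was the lower one (229.6 to 83.1, -1.47).

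Of 32 other mitochondrial genes measured, 3 were at least 2-fold higher and 2 at least 2-fold lower, with a median of 0.37. Ivd, the dehydrogenase of leucine breakdown (1294 to 3181, 1.30), the fatty acid and bile acid CoA ligase Slc27a5 (13150 to 29261, 1.15) and the medium-chain ligase Acsm3 (2650 to 5356, 1.02) were higher. Besides Acot9, the lower gene was Nnt, the proton-driven transhydrogenase that supplies mitochondrial NADPH (9178 to 3612, -1.35, and -1.24 by its second probe set). Nnt carries a deletion in the C57BL/6J strain, and the labels do not state the strain of these mice.

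Of 38 other PPAR-alpha targets and regulators measured, 6 were at least 2-fold lower and 2 at least 2-fold higher, with a median of -0.09. The lower ones were the fasting hormone Fgf21 (1521 to 130.8, -3.54), the lipid droplet proteins Cidec (3371 to 1044, -1.69) and Plin2 (23889 to 8559, -1.48), the fatty acid hydroxylase Cyp4a31 (1440 to 559.3, -1.36), which has close relatives, Apoa4 (37232 to 16600, -1.17), an apolipoprotein that follows liver fat, and the fatty acid receptor Cd36 (16277 to 7503, -1.12). Cd36 and Plin2 are also made by macrophages, of whose markers 10 of 19 were at least 2-fold lower; the part of that in these values was not tested. Lpin1, a phosphatidate phosphatase and coactivator of PPAR-alpha, was higher (1397 to 10278, 2.88), as was the dim Ucp3 (60.9 to 125.1, 1.04). The coactivator Ppargc1a had signals of 519 and 782.9 (0.59) by its brightest probe set, the lowest of 5 that ranged up to 1.48. Rxra, the DNA-binding partner, had 3543 and 4187 (0.24), with 0.49 by its other probe set.

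Over all 120 other pathway genes measured, 11 were at least 2-fold lower and 12 at least 2-fold higher, beside 8.96% and 3.83% of all genes. The higher count was 7 with quantile normalization or loess, where 3.98% and 3.22% of all genes were higher.

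**Figure D4:**
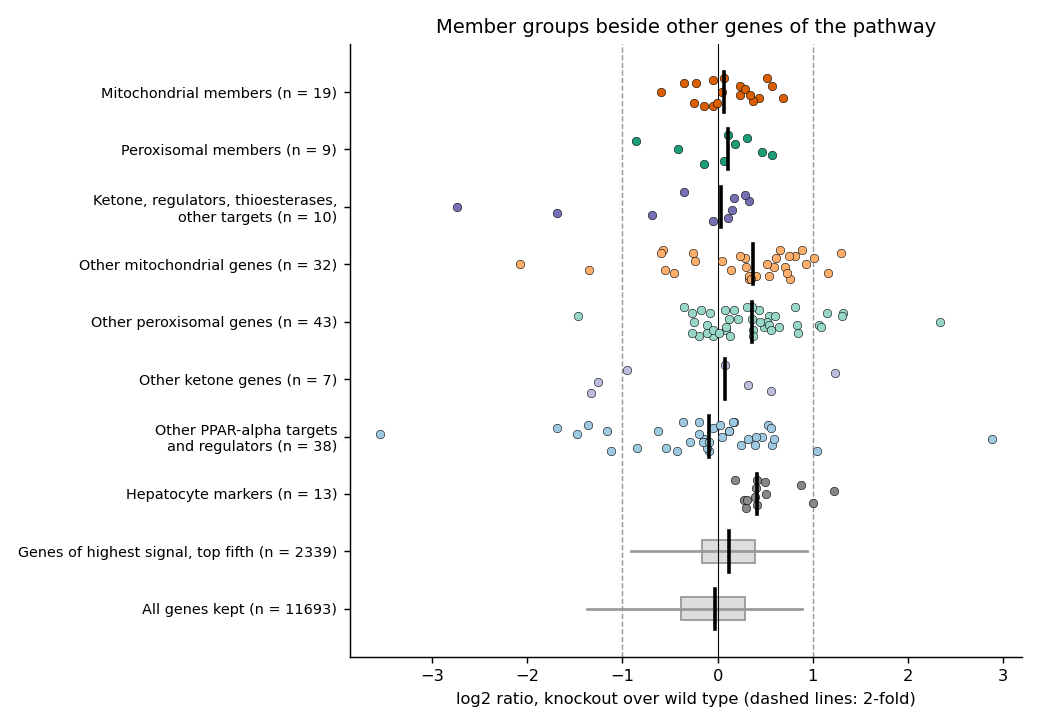
Log2 ratios of knockout over wild type for the members by compartment, the other pathway genes by list and the hepatocyte markers; each point is 1 gene, black bars are medians and dashed lines mark 2-fold. Boxes for the fifth of genes with the highest signal and for all genes span the middle 50% and their lines run from the 5th to the 95th percentile; the member groups centre near those medians (0.07 and 0.11), while other mitochondrial and peroxisomal genes centre at 0.37 and 0.36, near the hepatocyte markers at 0.41.

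The difference between probe sets of 1 gene is the sole repeat measurement in these data. Of the 17 members with several kept probe sets, 14 had all of them in 1 direction; the exceptions were Slc25a20, Cpt2 and Bdh1. The pooled SD of the log2 ratios of probe sets that read the same gene was 0.25 over these 17 and 0.45 over the 4958 genes with several. Most differences among the members are smaller than the latter value; those of Pdk4 and Acot2 exceed it several times, and Ehhadh, Vnn1, Etfa, Crat, Etfb, Acaa1a, Acaa2 and Decr2 exceed it slightly or by less than 2 times. This SD covers error within the arrays and says nothing of the spread between mice.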

How the data were processed

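Per the labels' protocols, 250 ng of total liver RNA per array was labelled with biotin for Affymetrix arrays. The authors deposited linear signal intensity values per probe set, and the submitters' processing notes name MAS5, which summarises the probes of a probe set; the version, settings and detection calls of that step were not given in the sources used here. In the deposited intensity table both arrays had a 2% trimmed mean of 500.004, so each had been scaled before deposit.

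Of 45101 probe sets, 64 were controls, 34945 named 1 gene, 932 several and 9160 none in the platform annotation; symbols were updated by gene identifier through RefSeq. Control probe sets were left out. Signals under 46.5 (the 40th percentile) were raised to that floor, and probe sets with a mean of at least 73.7 (the median) were kept. Each gene took the log2 ratio (knockout over wild type) of its brightest probe set, counted at 2-fold. With 1 array per genotype no test was made, and the 2 arrays limit the precision. Ratios were computed with Python 3.11.15, pandas 2.3.3 and, for loess (span 0.3), statsmodels 0.14.6. Recovery of known changes was tested on simulated data. The changes put in were larger than those of every member except Pdk4, so recovery of smaller differences was not tested.

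All members are named, with every probe set where probe sets disagree in sign, and of the other pathway lists every gene past 2-fold. Cell markers past 2-fold are counted, and only some of them are named. Pdk1, Pdk2, Acat1, Ppargc1a, Rxra, Fabp1, Cyp4a14 and Cyp4a12a were added after their values were seen. The members and lists were chosen with earlier results of these data known. Alternatives were other scalings, filters, floors, probe set rules and size rules; 1 scaling, on hepatocyte markers, was added after seeing the data.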

Additional observations from a re-analysis of the deposited data

How the results depend on the processing

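Pdk4 and Acot2 were the members at least 2-fold lower, and the count of 2 was kept under 10 of the 12 alternatives with a 2-fold rule that were planned. Those that altered only the filter or the floor could not change it. The count was 3 with quantile normalization and with loess, through Ehhadh (-1.02 under each). Centring on hepatocyte markers (added after seeing the data) gave 5, and so did a 1.5-fold rule, under which 1 member was higher. Over all genes, 8.5% were at least 2-fold lower with quantile normalization, 9.18% with loess and 17.2% with hepatocyte centring. At 1.5-fold, 17.4% of all genes were lower and 11.1% higher. The mitochondrial median of 0.07 became -0.06 with loess (-0.062) and with hybridisation controls (-0.063), 0.25 with poly-A controls, 0.23 with the mean of kept probe sets and -0.34 with hepatocyte centring. The peroxisomal median of 0.11 became -0.12 with quantile normalization (-0.122) and loess (-0.12), 0.30 with poly-A controls and -0.30 with hepatocyte centring, which also put the thioesterase median at -0.61. Of other pathway genes, 7 were at least 2-fold higher with quantile normalization and 7 with loess, 2 with hepatocyte centring, 28 at 1.5-fold and 2 at 3-fold, where 3 were lower. Over all genes, the shares higher under these settings were 3.98%, 3.22%, 1.34%, 11.1% and 0.872%, in that order. At 3-fold, 3.5% of all genes were lower. Of 490 single-gene values under alternatives, 489 moved by less than the SD between probe sets, 1 moved by more (Cpt2, 0.52 with the mean of its probe sets) and 46 changed sign. The count of 489 was largely fixed in advance and is no measure of robustness. Filter and floor settings left every member at its main value. Median, control and hepatocyte centring shift all member ratios by a constant that is smaller than this SD. The causes were not tested. No paired analysis was possible because each genotype has 1 array, and leaving out an array would leave no comparison. Signals near the floor limit the dim genes, not the members.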
